A study of Mus musculus with 4 samples.

Results

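The 4 genes described here are Nrg1, Nrg2 and Nrg3, which encode neuregulins, and Erbb4, which encodes their receptor. They were chosen by symbol, each matched a single row among the 32285 genes of the count matrices, and all 4 were counted in every lane. The matrices hold unique molecular identifiers (UMIs) of single nuclei from the cortex of wild-type C57BL/6J mice of both sexes. The mice received risperidone, an antipsychotic drug, at 4 mg/kg intraperitoneally every day, or saline, from postnatal day 22 for 21 days. After a washout without drug, the cortices were taken at postnatal day 90. Tissue of several mice was combined in 1 pool per condition, each pool was run on 2 Chromium lanes, and no other genotype or allele was used. The unit of replication is the pool, so each condition has n = 1. The lanes are technical runs of it, and the conditions are compared by size and lane spread with no p-value.

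Neuregulins are a family of growth factors that carry an EGF-like domain, the stretch that binds ErbB receptors. They are made as precursors, and in many forms the membrane-bound precursor is cut by proteases such as BACE1 and ADAM enzymes before or while it signals. ErbB4 is a receptor tyrosine kinase that binds neuregulins directly. In the cortex it is best known for its place on GABAergic interneurons, parvalbumin cells among them, where neuregulin signalling takes part in the wiring of inhibitory and excitatory synapses. Both NRG1 and ERBB4 are widely studied in relation to schizophrenia, the illness that risperidone is used to treat.

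All 4 genes lie on the reverse strand of GRCm38. Nrg1 (ENSMUSG00000062991) spans chromosome 8 from 31814551 to 32884029, Nrg3 (ENSMUSG00000041014) chromosome 14 from 38368952 to 39473088, and Erbb4 (ENSMUSG00000062209) chromosome 1 from 68032186 to 69108059. These loci are 1.07, 1.10 and 1.08 Mb long. Annotated exons cover 0.968% of Nrg1, 0.617% of Nrg3 and 1.15% of Erbb4. The counts include intronic reads, so a UMI does not show which form of a gene was made, and levels are compared between genes only per kilobase of gene length.

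The coding sequence of the EGF-like domain is shown for Nrg1 and Nrg3, from its first to its sixth cysteine codon, because it is the part of the ligand that meets ErbB4 and because Nrg1 makes 2 versions of it. The sequences were read from GENCODE vM21 transcripts of GRCm38, 5′ to 3′ on the coding strand, and the capitals mark the 6 cysteine codons.
Nrg1, end of the domain as in 8 annotated transcripts: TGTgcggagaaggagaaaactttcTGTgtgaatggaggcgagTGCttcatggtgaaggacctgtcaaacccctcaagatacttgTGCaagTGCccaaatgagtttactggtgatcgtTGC
Nrg1, end of the domain as in 5 annotated transcripts: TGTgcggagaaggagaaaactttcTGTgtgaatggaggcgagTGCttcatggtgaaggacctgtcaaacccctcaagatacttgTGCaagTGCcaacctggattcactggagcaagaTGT
Nrg3, as in 3 annotated transcripts: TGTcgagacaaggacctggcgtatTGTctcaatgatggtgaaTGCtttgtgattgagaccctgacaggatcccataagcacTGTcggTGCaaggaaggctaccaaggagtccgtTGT
In genome coordinates the first Nrg1 form lies within chr8:31837698-31849398, the second within chr8:31838298-31849398 and the Nrg3 stretch within chr14:38668261-39012054, each on 2 exons. Both Nrg1 forms are 120 bases long and are identical through the fifth cysteine codon, and they end on different exons. The Nrg3 stretch has 117 bases and the same 6 cysteine codons. Since UMIs of the gene are not split by exon, the values below sum the forms of each ligand.

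Nuclei were sorted into types by the UMIs of marker genes, none of which is a member, and the names stand for nuclei that resemble a type by these markers (PV-IN-like and so on). There were 8 layer types of glutamatergic neurons, namely intratelencephalic (IT) neurons of layers 2/3, 4/5 and the deep layers, extratelencephalic (L5 ET), near-projecting (L5 NP), corticothalamic (L6 CT), L6b and claustrum-like neurons. The others were PV-INs, Sst-INs, Vip-INs, Lamp5-INs, striatal-type neurons, astrocytes, oligodendrocytes, oligodendrocyte precursors, endothelial cells and mural or fibroblast cells. Each type had at least 1 of its markers among its own leading genes, but Vip-INs had 1 of 5 and Lamp5-INs 1 of 4. The striatal-type nuclei were led by 2 corticothalamic markers, Foxp2 and Syt6, beside 2 of their own. The marker profiles of Vip-INs and of L6b, made for each pool, came from few nuclei. For Vip-INs, saline lane 1 gave 1 and saline lane 2 gave 2, against 9 from risperidone lane 1 and 8 from risperidone lane 2. For L6b the lanes gave 7, 12, 14 and 13 in the same order. What so few nuclei mean for the Vip-IN and L6b values below was not tested. Microglia were left out, since 158 of their nuclei lay in clusters of that name and 619 in clusters with no name. The same comparison with clusters was also incomplete for types that were kept. L6b, Vip-INs and Lamp5-INs had no cluster of their own, with 619 L6b nuclei in L6 CT clusters, and 2512 L5 NP and 2719 deep IT nuclei, fewer than lay elsewhere, were in clusters of their name. Nuclei that resembled a mix of types or no type, 29.4% and 15.1% in saline lane 1 and 26.3% and 6.87% in risperidone lane 1, entered no type. The class of all glutamatergic neurons is wider than the 8 layer types. It also took in glutamatergic nuclei whose layer type was not settled, and their share was larger in the saline lanes. This class held 13083 and 13541 nuclei in saline and 13143 and 12038 in risperidone.

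The lanes held 29536 and 29986 nuclei for saline and 25983 and 23450 for risperidone, with a median of 3297 and 4049 UMIs per nucleus against 5648 and 7765.5. Between 160 and 221 barcodes were shared by any 2 lanes. The risperidone lanes listed nuclei down to 500 UMIs and the saline lanes down to 1364 and 1630. Markers of other classes gave a measure of RNA from other nuclei. In glutamatergic neurons, all 39 markers of glia, vessels and GABAergic neurons had UMIs, and their sum was 312 and 298 CPM, the UMIs scaled to a common total per lane and type, in the saline lanes against 205 and 196 in the risperidone lanes. Read as RNA from other nuclei, that is 29.2% and 28.2% of the glutamatergic UMIs in saline and 23.9% and 23.6% in risperidone. From this share and the mean profile of each lane, the background UMIs of every gene were estimated, and they are given below relative to the UMIs counted. A ratio above 1 cannot be a share of the UMIs, so the estimate is approximate, and what raised it above the count (the choice of markers or doublets) was not tested. Its part in the differences between the pools was not tested beyond these values.

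Over all nuclei of a lane, Nrg3 and Nrg1 were among the genes with the most UMIs, a ranking that is not corrected for gene length. Nrg3 stood at 6599 and 6732 CPM in the saline lanes and 7326 and 7406 CPM in the risperidone lanes, which placed it 12th among all genes in saline and 10th in risperidone. Nrg1 stood at 4984 and 4961 CPM against 5020 and 5101 CPM. Erbb4 stood at 1148 and 1152 CPM against 1243 and 1258 CPM, and Nrg2 at 278 and 273 CPM against 210 and 212 CPM. The 2 lanes of a pool differed by less than the pools for each gene except Nrg1, whose pools were nearly level.

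Most Nrg1 UMIs and most Erbb4 UMIs came from different neurons. Layer types held 84.6% and 86.0% of the Nrg1 UMIs of the typed nuclei in saline and 90.8% and 92.2% in risperidone. Of the Erbb4 UMIs they held 18.2% and 17.7% in saline and 8.80% or less in risperidone, although 75.3% to 83.3% of all UMIs of the typed nuclei came from them. The 4 interneuron types held 61.2% and 62.8% of the Erbb4 UMIs in saline and 76.6% and 77.3% in risperidone. Per kilobase of gene length, the mean level over the 4 lanes in glutamatergic neurons was 7.01 CPM for Nrg3, 5.35 for Nrg1, 1.27 for Nrg2 and 0.170 for Erbb4. In PV-INs the order was another, with 11.1 CPM per kilobase for Erbb4, 6.35 for Nrg3, 1.64 for Nrg2 and 1.33 for Nrg1.

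**Figure D1:**
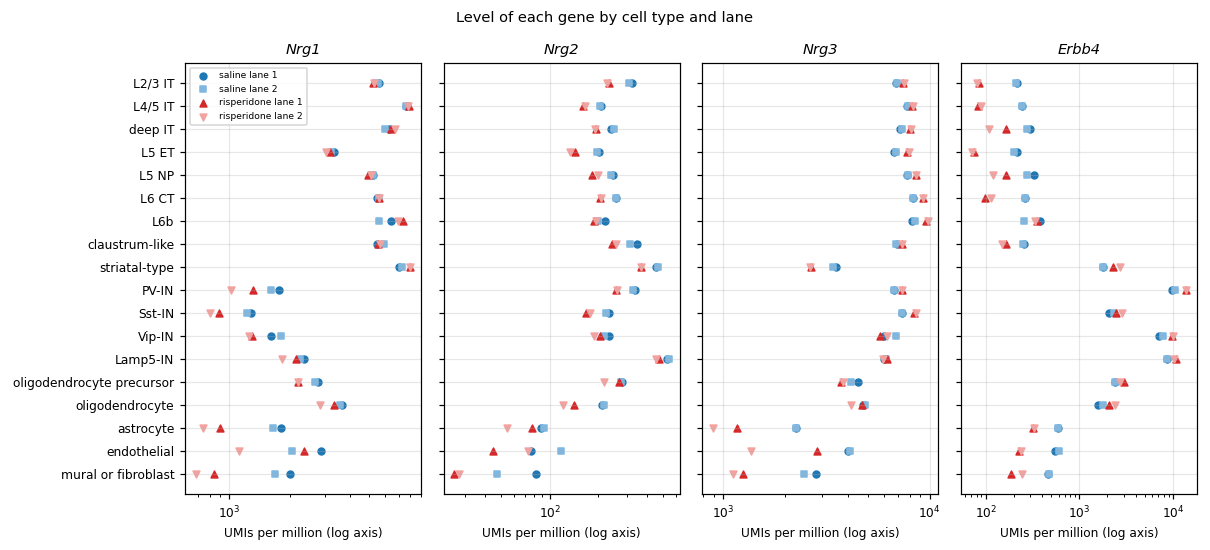
Level of Nrg1, Nrg2, Nrg3 and Erbb4 in CPM without scaling factors (log axis) in each of 18 cell types, with 1 point per lane (blue for the 2 saline lanes and red for the 2 risperidone lanes). Erbb4 reached 9767 to 13826 CPM in PV-INs and 70.5 to 384 CPM in the layer types, whereas Nrg1 reached 3038 to 7857 CPM in the layer types.

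Erbb4, the receptor, had its highest level in PV-INs. There it stood at 9767 and 10583 CPM in the saline lanes and at 13769 and 13826 CPM in the risperidone lanes. Lamp5-INs came next with 8630, 8591, 10679 and 10171 CPM in the same order, and Vip-INs followed with 7174, 7785, 9882 and 10103 CPM. The ranges of these 3 types over all lanes of both pools overlapped, but their order was the same in each lane. Sst-INs had much less, at 2100 and 2358 CPM in saline and 2452 and 2846 CPM in risperidone, and the ranges of Vip-INs and of the next type did not overlap.

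Outside interneurons, the receptor was also counted in the oligodendrocyte lineage. Oligodendrocyte precursors had 2402, 2406, 2977 and 2694 CPM of Erbb4, and oligodendrocytes had 1585, 1788, 2059 and 2396 CPM. The background estimate was 0.24 of the saline UMIs in precursors and 0.46 in oligodendrocytes. Striatal-type nuclei had 1804, 1783, 2300 and 2748 CPM. Over all lanes of both pools, the ranges of these 3 types and of Sst-INs overlapped their neighbours in the order. In each lane, however, Sst-INs stood above striatal-type nuclei. The next type, astrocytes, lay apart at 318 to 595 CPM.

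In single nuclei the receptor was nearly universal in 3 of the 4 interneuron types. After thinning each nucleus to 2000 UMIs, at least 1 Erbb4 UMI was found in 99.4% of PV-INs in saline lane 1 (95% Clopper-Pearson interval, 98.1 to 99.9, covering counting error only), 99.8% in lane 2 and 99.6% and 99.8% in the risperidone lanes. Unthinned, the shares were 99.6%, 99.6%, 99.6% and 100.0%. Sst-INs were mixed, with 73.3% and 72.3% in saline and 63.1% and 69.4% in risperidone after thinning. Their UMIs were also the most uneven of the 4 interneuron types, since the variance of thinned Erbb4 counts was 10.95 and 12.5 times the mean in saline and 13.8 and 16.7 times in risperidone, against 4.58 to 5.13 times in PV-INs.

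Glutamatergic neurons held little Erbb4, and its level did not exceed the estimated background. The lanes stood at 267 and 251 CPM in saline and at 114 and 101 CPM in risperidone. The estimated background was 1.28 times the UMIs counted in saline and 2.78 times in risperidone. After thinning to 2000 UMIs, 38.2% and 38.5% of glutamatergic nuclei had an Erbb4 UMI in the saline lanes (37.3 to 39.1 and 37.6 to 39.3) against 15.5% and 15.2% in the risperidone lanes, and unthinned the shares were 59.7%, 65.3%, 37.8% and 46.3%. Thinning left out 1759, 761, 124 and 83 glutamatergic nuclei with fewer UMIs and 576, 363, 869 and 396 astrocytes. In astrocytes the thinned shares were higher, at 55.8% and 58.5% in saline and 26.4% and 32.4% in risperidone, while the unthinned ones were 61.3%, 67.4%, 29.3% and 37.2%. The median UMIs of the nuclei were 3736, 4572, 6076 and 8375 in glutamatergic neurons and 1917, 2265, 1599 and 2181 in astrocytes. At equal depth the glutamatergic shares lay below those of this non-neuronal class, where the background estimate for Erbb4 was 0.76 of the saline UMIs. Background RNA was an estimated 42.8% and 36.1% of all astrocyte UMIs in saline and 22.1% and 21.6% in risperidone. The glutamatergic shares are not read as expression, and the source of these UMIs was not tested.

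Nrg1, a ligand with 18 annotated transcripts, was highest in L4/5 IT neurons, with 7606, 7633, 7857 and 7833 CPM in saline lanes 1 and 2 and risperidone lanes 1 and 2. Striatal-type nuclei had 7066, 7302, 8012 and 7929 CPM, and the lanes of these 2 types overlapped. L6b (5584 to 7346 CPM over the lanes) and deep IT neurons (5988 to 6717 CPM) overlapped each other too. Among the layer types L5 ET neurons had least, at 3334, 3231, 3194 and 3038 CPM, and did not overlap the other 7. The highest layer type was 2.42 times the lowest. Interneurons had less than any layer type, from a mean of 1047 CPM in Sst-INs to 2152 CPM in Lamp5-INs, and the background estimate over the 4 types was 0.64 to 1.03 of the saline UMIs. In oligodendrocytes, precursors, astrocytes and the 2 vascular classes it was 0.91 to 1.41 of the saline UMIs. The estimate there was close to or above the count, and the source of these Nrg1 UMIs was not tested.

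Nrg3, a ligand known for its high level in the nervous system, was nearly even over the layer types and interneurons. Over the 8 layer types its mean ran from 7126 CPM in claustrum-like neurons to 9013 CPM in L6b, a ratio of 1.26. Its lanes in L6b were 8195, 8451, 9646 and 9759 CPM, and those in L6 CT neurons 8302, 8331, 9280 and 9304 CPM. Sst-INs had 7354, 7367, 8435 and 8542 CPM, and PV-INs 6698, 6680, 7365 and 7303 CPM, as much as the layer types beside them in the order. Each of the 12 layer and interneuron types overlapped the next in this order by its range over all lanes of both pools. Striatal-type nuclei were apart from them with 3532, 3412, 2652 and 2633 CPM. Astrocytes had least, with 2254, 2259, 1165 and 892 CPM and a background estimate of 1.16 times the saline UMIs.

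Nrg2 (ENSMUSG00000060275) lies on chromosome 18 from 36017652 to 36197380, a locus of 0.180 Mb of which exons cover 1.75%. Per kilobase it was the lowest of the 3 ligands in glutamatergic neurons, and its highest level was in an interneuron type. Lamp5-INs led with 529, 545, 476 and 451 CPM. Their range over all lanes overlapped only that of the striatal-type nuclei, which were lower in each lane at 451, 465, 366 and 366 CPM. PV-INs had 334, 326, 257 and 262 CPM. The layer types ran from a mean of 169 CPM in L5 ET neurons to 289 CPM in claustrum-like neurons, and L2/3 IT neurons had 324, 309, 233 and 226 CPM. Oligodendrocyte precursors had 279, 276, 266 and 215 CPM with a background estimate of 0.49, while in the other non-neuronal types the estimate was 0.87 or more of the saline UMIs. The saline lanes were the higher ones in all 18 types, which come from the same 2 pools. After scaling, the lanes of the pools were apart, in either direction, in 65.1% of all gene and class pairs.

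Over the 18 types, the 4 genes did not share 1 pattern. Pearson's r of the mean log2(CPM + 1) was 0.63 for Nrg2 and Nrg3, 0.48 for Nrg1 and Nrg3 and 0.44 for Nrg1 and Nrg2. Erbb4 had r = -0.53 with Nrg1, 0.36 with Nrg2 and -0.09 with Nrg3. The search for genes of similar pattern left out the marker genes of the types, so none of these could appear. Among 11718 genes the closest to Nrg1 were Gpr26 (0.94), an orphan receptor, Celf2 (0.92), a splicing regulator, and Gm15810 (0.92). Those closest to Nrg2 were Dock3 (0.93), Rgs7bp (0.91) and 4930532I03Rik (0.91). Erbb4 was followed most closely by Gm14204 (0.92), Ubash3b (0.92) and Gad1os (0.91). For Nrg3 they were Gm20642 (0.98), Nrg3os (0.97) and Chd5 (0.96), and the first 2 of these lie within the Nrg3 locus on the other strand. These values describe sums over types that share lanes and background RNA, and they have no test.

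Whether adolescent risperidone left a difference in these genes was examined in each type. Fold changes are log2 ratios of the risperidone to the saline pool, scaled with TMM factors, with exact 95% intervals that cover counting error only. A gene was called higher or lower when this reached 0.5 with both lanes of a pool beyond both of the other, at a mean of at least 10 CPM. Of the 76 pairs of a member and a class (the 18 types and all glutamatergic neurons), 25 were lower by this rule and 0 higher. Over all genes and classes, 10.3% of pairs were called lower and 8.44% higher. With background RNA taken out, 7 of the member pairs were lower and 2 higher. A pair whose estimate reached the count in a saline lane was set to 0 there and could not be called lower. The fall to 7 is thus partly fixed by the rule. The share of all genes called with background taken out is not given here. Of the 25 lower pairs, 21 had a background estimate of at least 0.75 of the saline UMIs, and 18 of at least the whole. Of the 45 pairs with an estimate under 0.5, 2 were called, both of Nrg2.

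**Figure D2:**
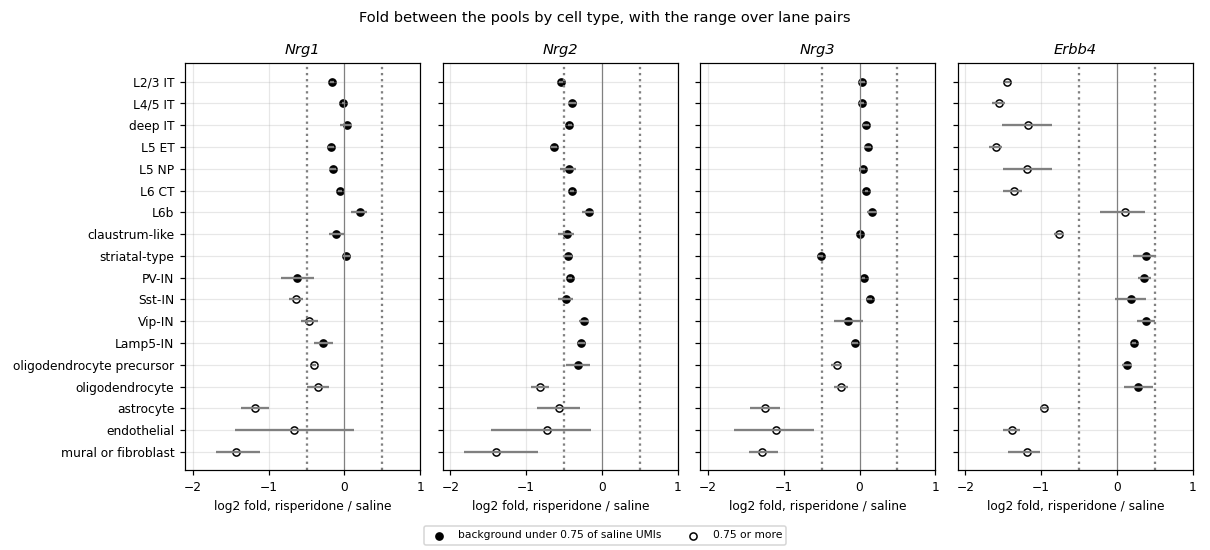
Log2 fold of the risperidone over the saline pool (TMM-scaled) for each gene and cell type. Bars give the range over the 4 pairs of lanes, dotted lines mark 0.5 in either direction, and open points have a background estimate of 0.75 or more of the saline UMIs. Erbb4 was lower with open points in 7 of 8 layer types, while in interneurons its filled points lie between 0.18 and 0.38.

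In glutamatergic neurons Erbb4 was the member past the threshold, and there the background estimate exceeded its UMIs. Its fold was -1.37 (-1.39 to -1.34), with 32963 UMIs in saline and 20760 in risperidone, and both lanes of each pool were apart. In this class 7.53% of 7183 genes were called lower and 4.04% higher. By layer type the fold ran from -1.60 in L5 ET to -0.77 in claustrum-like neurons among the 7 called, and was 0.10 (-0.03 to 0.23) in L6b, where the lanes of the pools overlapped. In these 7 types the background estimate was 1.16 to 1.75 times the saline UMIs, and no UMIs remained once it was taken out, so a difference in the neurons' own Erbb4 RNA was not detectable. The shares of genes called lower were 12.1% in L5 ET, 6.28% in L4/5 IT, 7.93% in L2/3 IT, 7.38% in deep IT, 6.38% in L5 NP, 7.11% in L6 CT and 9.05% in claustrum-like neurons. Erbb4 was also lower in astrocytes (-0.96), endothelial cells (-1.38) and mural or fibroblast cells (-1.19), with estimates of 0.76, 1.13 and 1.30. With classes taken from Louvain clusters, which group nuclei by their whole profile, Erbb4 was called higher in endothelial cells (0.88) and was level in astrocytes (-0.02) and claustrum-like neurons (0.033). These clusters also held nuclei set aside above as mixed. There were 333 beside 324 endothelial nuclei, 3089 beside 4187 astrocytes and 320 beside 1000 claustrum-like nuclei.

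In PV-INs, where the receptor was most abundant, the fold of Erbb4 was 0.36 (0.34 to 0.37) and did not reach the threshold. The 4 pairs of lanes gave 0.28 to 0.45. Both risperidone lanes were above both saline lanes, as in 6 of the 18 types after scaling. Over all genes and classes the lanes of the pools were apart in 65.1% of pairs. Vip-INs had 0.38 (0.35 to 0.41), Lamp5-INs 0.22 (0.20 to 0.24), Sst-INs 0.18 (0.14 to 0.21) and striatal-type nuclei 0.39 (0.35 to 0.42), of which only the lanes of Sst-INs overlapped. Striatal-type nuclei called female by Xist UMIs numbered 189, 246, 391 and 356 in saline lanes 1 and 2 and risperidone lanes 1 and 2. Those called male by Y-linked UMIs numbered 255, 226, 41 and 44, so their mix of sexes differed between the pools. Background RNA made up an estimated 27.4% and 23.2% of the PV-IN UMIs in saline and 16.5% and 14.9% in risperidone. With that RNA taken out, the fold in PV-INs was 0.21, in Vip-INs 0.20, in Lamp5-INs 0.13 and for Sst-INs 0.10. Of 7423 genes measured in PV-INs, 8.31% were called higher and 8.65% lower.

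**Figure D3:**
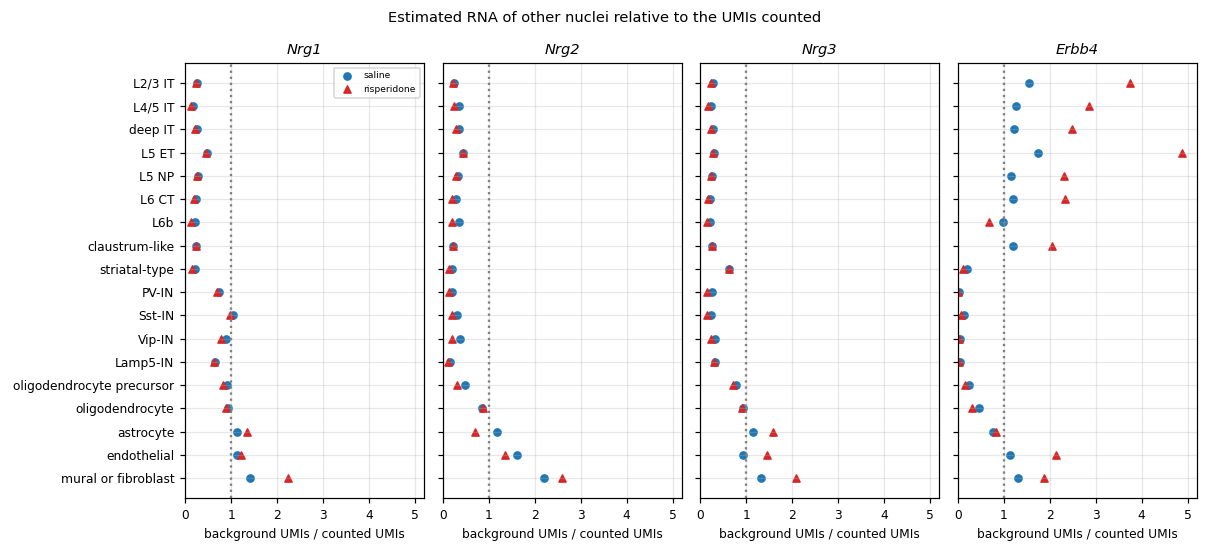
Estimated background UMIs divided by UMIs counted, for each gene and cell type, in saline (blue circles) and risperidone (red triangles), with a dotted line where the estimate equals the count. Erbb4 lies above 1 in 7 layer types in both pools and under 0.14 in the 4 interneuron types.

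Nrg1 and Nrg3 were close to level between the pools in glutamatergic neurons. Nrg1 stood at 5697 and 5671 CPM in saline and 5722 and 5788 CPM in risperidone, and its fold was -0.073 (-0.078 to -0.069), or 0.019 on unscaled CPM. Nrg3 stood at 7354, 7449, 8036 and 8101 CPM, and its fold was 0.031 (0.028 to 0.035), or 0.12 unscaled, with overlapping lanes after scaling. Over the 8 layer types the fold of Nrg1 ran from -0.18 in L5 ET to 0.21 in L6b, and that of Nrg3 from 0.0093 in claustrum-like neurons to 0.16 in L6b. The lower pairs of Nrg1 were astrocytes (-1.18), mural or fibroblast cells (-1.43), PV-INs (-0.62) and Sst-INs (-0.64), with a background estimate of 0.74 to 1.41 of the saline UMIs. In Sst-INs the value turned to 1.85 with background RNA taken out, and it was not called. The estimate there nearly equalled the UMIs counted, so this value is a ratio of the few UMIs that remained. The lower pairs of Nrg3 were astrocytes (-1.24), endothelial cells (-1.10), mural or fibroblast cells (-1.29) and striatal-type nuclei (-0.51), with 0.62 to 1.32. In astrocytes the value was 0.024 with Louvain clusters. The share of all genes called lower in these classes ran from 7.65% in Sst-INs to 18.5% in endothelial cells, with 10.4% in striatal-type nuclei, 14.7% in astrocytes and 17.6% in mural or fibroblast cells. The mix of sexes among striatal-type nuclei differed between the pools, as given above. It also differed among L6b nuclei and astrocytes, as given below.

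Nrg2 was the member with a negative fold in every type. In glutamatergic neurons it stood at 261 and 255 CPM in saline and at 199 and 200 CPM in risperidone, a fold of -0.46 (-0.48 to -0.44) that did not reach the threshold. Both risperidone lanes were below both saline lanes in 18 of the 18 types, with and without scaling. Over all genes and classes the lanes were apart, in either direction, in 65.1% of pairs, and all types come from the same 2 pools. The median fold of Nrg2 over types was -0.44. The sign turned in endothelial cells (0.018) and mural or fibroblast cells (0.59) with a floor of 2000 UMIs per nucleus, in the latter also after thinning (0.41), and in female nuclei of L6b (0.32) and Vip-INs (0.013). It was called lower in L2/3 IT neurons, at -0.54 (-0.58 to -0.50) with 9274 and 14189 UMIs in the pools, and in L5 ET neurons, at -0.63 (-0.72 to -0.55) with 2403 and 2026 UMIs. There 7.93% and 12.1% of genes were called lower, and the background estimate was 0.25 and 0.43. The L2/3 IT call depended on scaling, since on unscaled CPM its fold fell short of the threshold, whereas that of L5 ET did not. The scaled fold was -0.42 (-0.52 to -0.32) for PV-INs, -0.47 for Sst-INs and -0.28 for Lamp5-INs, none past the threshold. With background RNA taken out, the glutamatergic fold was -0.45. In glutamatergic nuclei called female by Xist UMIs it was -0.48, and in those called male by Y-linked UMIs -0.39. The other pairs called lower were of glia and vessels, namely oligodendrocytes (-0.81), astrocytes (-0.57), endothelial cells (-0.73, -1.68 to 0.20, from 24 and 19 UMIs) and mural or fibroblast cells (-1.40, from 27 and 12 UMIs). There the background estimate was 0.87 to 2.20 and 12.5% to 18.5% of genes were called lower.

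The fold of the receptor had the same sign in nuclei of either sex, which came from the same pools. In glutamatergic neurons it was -1.38 in nuclei called female and -1.48 in those called male, and in PV-INs 0.41 and 0.33. The lanes held 11127, 11722, 12791 and 11360 nuclei called female and 5299, 5484, 4806 and 4543 called male. The call thus left out many nuclei of each pool. The mix of sexes differed between the pools in some types beside striatal-type nuclei. Claustrum-like nuclei called female numbered 141, 167, 268 and 265, and those called male 98, 106, 71 and 48. For astrocytes the numbers were 360, 378, 596 and 547 against 224, 234, 165 and 156.

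The antisense transcripts counted on the other strand of Nrg3 and Nrg2 were higher in the risperidone pool. Nrg3os (ENSMUSG00000093528), an antisense transcript, lies at chr14:38898302-38958794, in the intron between the 2 exons that code for the EGF-like domain printed above. In glutamatergic neurons its 4 lanes held 981, 1171, 12367 and 13752 UMIs, or 17.4, 16.4, 143 and 128 CPM, a fold of 2.90 (2.84 to 2.96). Gm20642, on the same strand within Nrg3, had 890, 1089, 8729 and 9172 UMIs, Gm20641 had 105, 134, 683 and 747, and 4930471G03Rik within Nrg2 had 70, 73, 388 and 469. Their folds were 2.48, 1.88 and 1.88, the last 2 at levels under the minimum of 10 CPM. Of 114 measured genes that the annotation classes as antisense, 44 were called higher in this class and 10 lower, where 4.04% of all genes were called higher and 7.53% lower, with a median fold of 0.15 against -0.03 over all genes.

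The ratio of Nrg3os to its sense gene was close to the same value in most cell types of a lane. In glutamatergic neurons Nrg3os UMIs were 0.237% and 0.220% of the Nrg3 UMIs in saline and 1.77% and 1.57% in risperidone. In PV-INs they were 0.233%, 0.155%, 1.72% and 1.49%. The median over 19 classes was 0.223% and 0.220% in saline and 1.74% and 1.56% in risperidone. In astrocytes, where the estimated background exceeded the UMIs of both transcripts, it was 0.218%, 0.145%, 1.35% and 1.08%. Outside the vascular types, every risperidone lane was above every saline lane, as the plot of this percentage shows. The 2 transcripts are told apart by strand alone, and what raised the ratio in the risperidone pool was not tested.

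**Figure D4:**
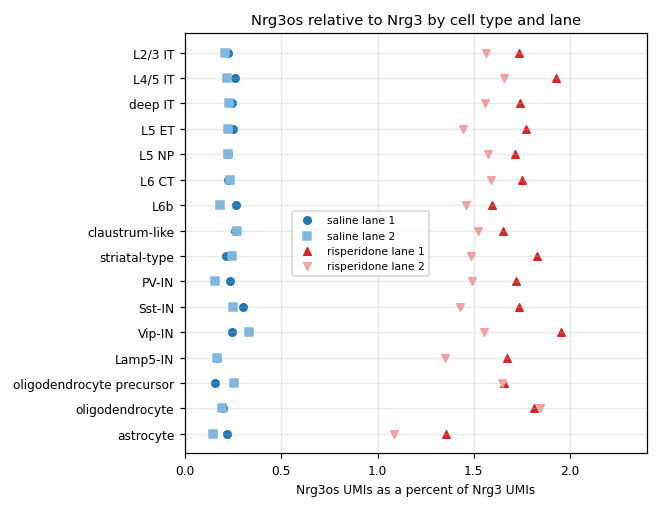
Nrg3os UMIs as a percent of Nrg3 UMIs in 16 cell types, with 1 point per lane (blue for saline, red for risperidone). The 2 vascular classes, with at most 14 Nrg3os UMIs in a pool, are not plotted. In glutamatergic neurons as a whole the values were 0.237%, 0.220%, 1.77% and 1.57%.

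The rest of the pathway was taken from a list of 44 genes, of which 43 were in the matrices and 24 reached 10 CPM in glutamatergic neurons. There 1 was called higher and 1 lower, and the median fold of the 24 was -0.15, against -0.03 over all 7183 genes. None of the other receptors or other ligands reached the minimum in this class. Erbb2, a co-receptor that binds no ligand of its own, had 30 UMIs in each pool of glutamatergic neurons, and Erbb3, the neuregulin receptor whose kinase is weak, had 85 and 40. Erbb3 was found in oligodendrocytes instead, with 95 and 141 UMIs in the pools and a fold of 0.76 (0.38 to 1.15), and in their precursors, with 17 and 34 UMIs and a fold of 0.98 (0.10 to 1.91). Both were called higher, as were 8.06% and 8.13% of all genes in these types. Egfr, the EGF receptor, had its highest level of the 8 classes examined in Lamp5-INs, at 620, 602, 626 and 611 CPM with a fold of -0.04 (-0.12 to 0.05). Vip-INs followed with 325, 365, 473 and 522 CPM and astrocytes with 364, 401, 464 and 455 CPM, at folds of 0.49 (0.36 to 0.63) and 0.16 (0.07 to 0.25).

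Of the 9 proteases and protease subunits listed, 6 were measured in glutamatergic neurons and 1 was called higher. Adam10, a shedding protease, had 62.6 and 61.8 CPM in saline and 74.7 and 73.9 CPM in risperidone, a fold of 0.16 (0.12 to 0.20). Bace1 had 30.3 and 28.7 CPM in saline and 23.5 and 23.4 CPM in risperidone, a fold of -0.42 (-0.49 to -0.36), short of the threshold. The gene called higher was Ncstn, a subunit of gamma-secretase, with 9.15, 9.42, 14.2 and 14.1 CPM and a fold of 0.51 (0.41 to 0.61). This call was lost without saline lane 1, with a floor of 2000 UMIs per nucleus, in female nuclei and with a minimum of 50 CPM. Ncstn was also called higher in Lamp5-INs, where 8.86% of genes were.

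Downstream of the receptor, the gene called lower in glutamatergic neurons was Erbin, an ErbB2-binding scaffold. It had 27.3 and 27.7 CPM in saline and 18.3 and 17.7 CPM in risperidone, a fold of -0.71 (-0.77 to -0.64), with a background estimate of 0.52, and a minimum of 50 CPM ended this call. In PV-INs Erbin had 82.2, 94.9, 117 and 129 CPM and a fold of 0.39 (0.22 to 0.57), with the opposite sign, and this difference was not tested. It was called higher in Lamp5-INs (0.53, 0.30 to 0.76) and in oligodendrocytes (0.83, 0.73 to 0.94). In oligodendrocytes background RNA was an estimated 70.1% and 64.4% of all UMIs in saline and 59.6% and 48.7% in risperidone. Per kilobase, Kalrn, a guanine nucleotide exchange factor, had the highest level of the kinases and effectors in glutamatergic neurons, at 4.90 CPM, with a fold of -0.22. Dlg4, which encodes the postsynaptic scaffold PSD-95, led the regulators and adaptors at 3.88 CPM per kilobase, with a fold of -0.41 (-0.44 to -0.38), ahead of the scaffold Magi2 at 2.02, with -0.03.

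In PV-INs, 28 genes of the list were measured, of which 1 was called higher and 4 lower, with a median fold of -0.07, where 8.31% of all genes were called higher and 8.65% lower. The lower ones were Dlg4 (-0.64, -0.85 to -0.43), Stat5b, a transcription factor (-0.55, -0.81 to -0.28), Akt2, a kinase (-0.51, -0.93 to -0.08), and Gab1, an adaptor that had 15.6, 12.3, 7.35 and 7.23 CPM from 64 and 45 UMIs. The higher one was Egfr, from 40 and 98 UMIs (0.80, 0.26 to 1.37), whose background estimate was 1.27 times the saline UMIs. Nrg4, the remaining neuregulin, had 0.24 (-0.18 to 0.67). Dlg4 was called lower in Sst-INs (-0.58), Vip-INs (-0.59) and oligodendrocytes (-0.67, with a background estimate of 0.81) as well, where 7.65%, 7.76% and 12.5% of all genes were. In Sst-INs 26 genes of the list were measured. There Psen2, a gamma-secretase subunit, was called higher (0.53, -0.04 to 1.13), where 6.83% of genes were, and Pik3r1, a subunit of a lipid kinase (-0.57), and Egfr were called lower beside Dlg4. Egfr had 163 and 103 UMIs in Sst-INs and a fold of -1.09 (-1.46 to -0.73), with a background estimate of 0.33. It was also called lower in oligodendrocytes (-0.75, -1.06 to -0.44), with a background estimate of 0.71, as 1 of 6 lower and 2 higher calls among the 30 genes of the list measured there. In oligodendrocyte precursors, where 9.84% of genes were called lower, Egfr (-0.72, from 39 and 24 UMIs, with a background estimate of 1.38), Grb2 and Gab1 were among them.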

How the data were processed

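The authors isolated nuclei from pooled cortex, sorted them by DAPI to remove debris, ran each pool on 2 lanes with a GEM-X kit and processed the reads with Cell Ranger 8.0.1 on mm10 (versions per the submitters' processing notes), counting intronic reads. The deposited matrices hold counts of UMIs per gene and nucleus, not normalized. Positions and lengths came from GENCODE vM21 (GRCm38), which holds 99.8% of the gene identifiers.

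Kept were 29533, 29981, 25696 and 23283 nuclei per lane, those with 500 genes or more and no more than 5% of UMIs from mitochondrial genes. Nuclei with at least 3 of a type's markers well above chance level (2 for short lists) gave a profile over 108 marker genes for each pool, and every nucleus with at least 5 marker UMIs was given the type whose multinomial log likelihood led by 3. A nucleus better described by a mix of 2 broad classes was set aside as doublet-like. These thresholds were set after marker levels had been seen. The members, lists and rules were chosen with earlier results of these data known. Counts were summed per type and lane and scaled with edgeR 4.0.16 TMM factors (R 4.3.3), and DESeq2 1.42.0 size factors were an alternative. The fold calculation was tested on simulated counts that held counting error only. They had no difference in background RNA or mix of sexes between the pools, so they do not check the folds for these. Scripts ran on Python 3.11.15 with igraph 0.11.9, scikit-learn 1.9.0, scipy 1.17.1 and numpy 2.4.6.

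Named genes were the 4 members, antisense genes within their loci, and pathway genes past the threshold or most abundant in their role. Also named were the 3 genes of most similar pattern for each member over 18 types, marker genes left out. Egfr, Erbb2, Erbb3, Bace1 and Nrg4, and pathway genes in the other classes, were named after their values were seen. Intervals for single counts and shares are exact at 95% and cover counting error only. Alternatives covered scaling, minimum level, each lane, depth, background, sex, marker threshold and clustering.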

Additional observations from a re-analysis of the deposited data

Results flagged for a closer look

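The fold between the pools went opposite ways in different cell types for 3 members, in every pair of lanes, and these differences were not tested. Lanes of the pools were apart, in either direction, in 65.1% of all gene and class pairs. The share of all genes that went opposite ways in this manner is not given here. Nrg1 was at 0.21 in L6b and -1.43 in mural or fibroblast cells. Nrg3 was at 0.16 in L6b and -1.29 in mural or fibroblast cells. Erbb4 was at 0.39 in striatal-type nuclei and -1.60 in L5 ET neurons. Among striatal-type nuclei the mix of sexes differed between the pools, and among L6b nuclei it did too. L6b nuclei called female numbered 95, 111, 157 and 136 in saline lanes 1 and 2 and risperidone lanes 1 and 2. Those called male numbered 44, 48, 29 and 28. In the types with the negative values the background estimate was at least 1.32 times the saline UMIs, against at most 0.22 in the types with the positive ones.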

How the results depend on the processing

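No paired analysis was possible because the lanes that share a number are technical runs of different pools and no result comes from a test. The lanes were left out in turn instead. The fold of Erbb4 in glutamatergic neurons then ran from -1.43 to -1.29 and in PV-INs from 0.29 to 0.43, that of Nrg2 in glutamatergic neurons from -0.48 to -0.45, of Nrg1 from -0.10 to -0.05 and of Nrg3 from 0.01 to 0.06. Pairs called lower numbered 25 to 26 and higher 0 to 1 (1 without risperidone lane 1), and pathway genes called higher 0 to 1 (0 without saline lane 1).

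In glutamatergic neurons, unscaled CPM gave 0.019 for Nrg1, so its sign turned, -0.37 for Nrg2 and 0.12 for Nrg3. Layer types weighted equally gave -0.042 for Nrg1, -0.44 for Nrg2, 0.073 for Nrg3 and -0.96 for Erbb4. Thinning nuclei to 2000 UMIs gave -0.51 for Nrg2, past the threshold, and -1.55 for Erbb4, which was -1.49 without the deepest 5% of nuclei. Nrg2 was -0.48 in female and -0.39 in male nuclei and -0.44 with a stricter marker threshold. With background RNA taken out, Erbb4 in PV-INs was 0.21, no value remained for Erbb4 in glutamatergic neurons, and the pairs called lower fell to 7, with 2 higher. Pairs with a saline lane set to 0 by this step could not be called lower. Pairs called higher were 1 with unscaled CPM, thinning, male nuclei or Louvain clusters and 2 in female nuclei. Apart from the 7 given above, pairs called lower ran from 17 with Louvain clusters to 30 in female nuclei, with 22 on unscaled CPM. Pathway genes called higher and lower in glutamatergic neurons were 2 and 4 with a minimum of 1 CPM and 0 and 0 with 50 CPM. The higher count was 0 with a floor of 2000 UMIs or female nuclei, and the lower count was 2 after thinning. The ratio of the CPM level in PV-INs to that in glutamatergic neurons was 0.250 for Nrg1, 1.29 for Nrg2, 0.906 for Nrg3 and 84.2 for Erbb4. Louvain clusters gave 1.23 for Nrg2 and 0.871 for Nrg3. The Erbb4 ratio had a lane spread of 52.2, and its glutamatergic level did not exceed the estimated background. Shares of thinned nuclei with a UMI gave ratios of 0.809, 1.25, 1.00 and 4.54. These do not measure level, because shares level off once nearly every nucleus has a UMI. For Nrg1, 99.2% of thinned glutamatergic nuclei had one in saline lane 1.

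Among the other pairs called lower, the signs of 7 values turned. Turned signs in pairs that were not called, such as Nrg2 in female nuclei of L6b and Vip-INs, are not in this count. Louvain clusters, which also held nuclei otherwise set aside as mixed, gave 0.024 for Nrg3 in astrocytes. They gave 0.88 for Erbb4 in endothelial cells, there called higher, and 0.033 for Erbb4 in claustrum-like neurons. A floor of 2000 UMIs gave 0.018 for Nrg2 in endothelial cells and 0.59 in mural or fibroblast cells, where thinning gave 0.41. Background taken out gave 1.85 for Nrg1 in Sst-INs, which was not called and came from the few UMIs that remained. The cause of these changes was not tested. Of 1102 alternative values of the other 71 folds, 876 moved by no more than the lane spread. Depth limits the vascular types most, where Nrg2 rests on 12 to 27 UMIs per pool.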
